A study of Mus musculus with 8 samples.

Results

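The small heat shock proteins of muscle and their co-chaperone Bag3 were followed in ventricles of mice heterozygous for a Pkp2 deletion (HET) and of wild-type mice (WT). The set was chosen by name and holds 8 genes, the small heat shock proteins Cryab, Hspb1, Hspb2, Hspb3, Hspb6, Hspb7 and Hspb8 together with Bag3, out of 38293 genes in the deposited count table. All 8 were detected in every library and all 8 passed the filter on low counts, so none is missing from what follows.

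The HET group had 4 samples with 1 mutant and 1 wild-type Pkp2 allele, and the WT group had 4 samples with 2 wild-type alleles. Pkp2 encodes plakophilin-2, a desmosomal protein of the intercalated disc, and the series asks about the degradation of desmosomal proteins in arrhythmogenic cardiomyopathy. Both groups were 8 weeks old, the tissue was mixed left and right ventricle, and no treatment was named. The labels do not say how the allele was made, whether it was knocked in alone, or whether each sample was a separate animal. P-values therefore measure only the spread between these samples, which may be technical. The mutation is written as a deletion, c.1755delA, in the series title, without the letters for deletion in the genotype label, and with a different base in the name of the count table. The title's form is used here.

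Total counts were 32397302 to 38611008 in HET libraries and 38510257 to 41234883 in WT libraries. Pkp2 itself was at 88.2 to 106 CPM (a gene's counts set against the TMM-scaled total of its library) in HET and 149 to 169 CPM in WT. Every HET library lay below every WT library, and Pkp2 was the only gene called (Benjamini-Hochberg adjusted p = 0.00376, edgeR quasi-likelihood). The tissue was checked by marker genes: summed cardiomyocyte markers lay at 73766 to 77332 CPM in HET and 69007 to 73773 CPM in WT. Mitochondrial genes took 17.1% to 19.1% of the counts in 7 libraries but 14.7% in WT replicate 3. In bulk tissue, fewer cells of a type and less RNA per cell cannot be told apart.

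Small heat shock proteins share an alpha-crystallin domain, assemble into oligomers, and hold unfolding proteins in a soluble state until chaperones that use ATP can act on them. Heart muscle makes several of them at high constitutive levels, where they protect desmin, actin, titin and filamin from mechanical wear. Bag3 binds small heat shock proteins, above all Hspb8, and joins them to Hsc70, the constitutive chaperone encoded by Hspa8, so that damaged proteins of the Z-disc are tagged by the ubiquitin ligase Stub1 and cleared by autophagy. Mutations of CRYAB and BAG3 in humans cause myopathy and cardiomyopathy.

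Transcription of several of these genes is raised by heat shock factors, which bind inverted repeats of the letters GAA. Promoter windows (250 bases before to 50 bases after the gene start, RefSeq, GRCm38.p6) were at hand for 6 of the 8 genes, all but Cryab and Hspb2, and were searched on both strands for the smallest such repeat in each orientation, GAANNTTC and TTCNNGAA. Both patterns read the same on either strand, and matches of the 2 can overlap. GAANNTTC was found for 5 of the 6 genes, Hspb1, Hspb3, Hspb6, Hspb8 and Bag3, and for 8 of the 13 inducible heat shock genes with a window. These counts are by gene, and the 6 genes have 7 windows. The pattern was found for 9.04% of the 27025 genes with a window, and in 7.86% of all 32851 windows. TTCNNGAA was found for 0 of the 6 and in 8.52% of all windows. The matched stretches are shown to give the letters behind these counts and their surroundings; the pattern fixes 6 of the 8 matched letters. The capitals mark the match, each sequence is read along the gene's own strand, and a match is a description of letters, not a binding site.
Bag3 (chr7:128523603-128523632, plus strand): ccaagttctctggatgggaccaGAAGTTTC
Hspb8 (chr5:116422844-116422873, minus strand): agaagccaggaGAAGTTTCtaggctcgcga
Hspb6 (chr7:30553170-30553199, plus strand): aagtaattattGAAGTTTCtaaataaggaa
Hspb1, outer match (chr5:135887791-135887820, plus strand): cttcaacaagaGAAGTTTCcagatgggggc
Hspb1, inner match (chr5:135887811-135887840, plus strand): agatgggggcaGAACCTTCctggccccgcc
Hspb3 (chr13:113663882-113663911, minus strand): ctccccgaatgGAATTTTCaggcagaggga

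The full match read GAAGTTTC for Bag3, Hspb8, Hspb6 and Hspb1. The match began 117 and 97 bases before the start of Hspb1, 120 bases before the downstream of the 2 annotated starts of Hspb6 and 224 bases before that of Hspb3. In Hspb8 it began at base 3 after the start and in Bag3 at base 43. Starts are those of RefSeq, and for Bag3 the RefSeq start lies before the GENCODE start given with its values. TATAAA was found for Hspb3 and Hspb6 and in 13.6% of all windows, a MEF2 motif for Hspb3 alone of the 6 genes (3.19% of windows), and a CArG box for 0 of the 6 (1.63%). In Hspb3 the MEF2 match contains the TATAAA match, so both are 1 stretch.

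None of the small heat shock genes, nor Bag3, passed the test between genotypes. Of the 8 members 0 were called by edgeR (quasi-likelihood, adjusted p under 0.05), by DESeq2 or by limma-voom, where by edgeR 0.00686% of the 14567 genes tested were called. At an unadjusted p under 0.05, 0 of the 8 passed, against 6.38% of all genes. The groups overlapped for all 8 members, and they did not overlap for 3.78% of all genes. The median log2 fold change, HET over WT, was -0.01 over the 8 members and -0.00 over all genes tested. The median absolute log2 fold change was 0.0113 for the members and 0.0568 for the 9078 genes with a mean of at least 8 CPM, which include every member. Some sample titles share digits that the labels do not explain, and 1 alternative fit took them as a covariate. This covariate set the 3 HET and 1 WT libraries that share the same digits against all others. The others include WT replicate 2, whose digits no other library shares. The members' value depended on the processing: it was 0.0597 without HET replicate 1 (0.0613 for those genes), 0.05 with library-size scaling (0.0594) and 0.0799 with title digits as a covariate (0.0541). Adjusted p-values of the members were 0.770 to 0.997 in the same edgeR fit, and exact two-sided permutation tests of single members gave p = 0.0857 (Bag3) to 1, where 0.0286 is the smallest that 4 samples against 4 can give.

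**Figure D1:**
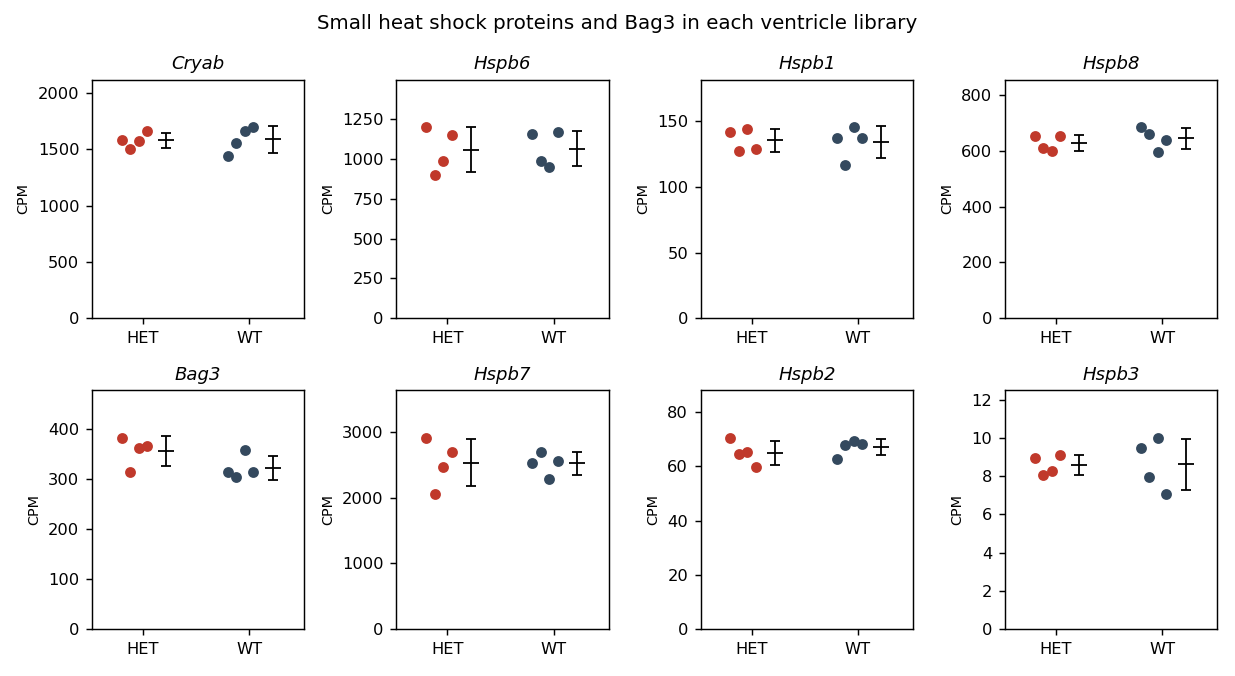
CPM of each member in every library, HET points left and WT points right in each panel, with mean and SD as black bars beside them and every axis starting at 0. The groups overlap in each of the 8 panels, and Bag3 shows the largest offset between means, 356 CPM in HET and 323 CPM in WT.

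Cryab, alpha-B-crystallin, the chaperone of desmin and titin, stood at 1581, 1507, 1575 and 1666 CPM in HET replicates 1 to 4 and at 1439, 1556, 1666 and 1696 CPM in WT replicates 1 to 4. All HET values lay within the range of WT. The means were 1582 ± 65 CPM in HET and 1589 ± 117 CPM in WT (SD, n = 4 each). The fitted HET level was 99.6% of WT, with a 95% interval of 91.0% to 109%. The gene lies on chromosome 9 (50751325 to 50756636, plus strand, GRCm38; ENSMUSG00000032060).

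Hspb6, known as Hsp20 and a substrate of protein kinase A in heart muscle, was at 1197, 899, 985 and 1152 CPM in the HET libraries and 1153, 989, 949 and 1167 CPM in the WT libraries. Each group had a higher pair and a lower pair, HET replicates 1 and 4 and WT replicates 1 and 4 being the higher ones. Its means were 1058 ± 140 CPM in HET and 1064 ± 112 CPM in WT (SD, n = 4 each), a level of 99.4% (interval 84.7% to 117%). Hspb6 lies on chromosome 7, 30552178 to 30555443, plus strand (ENSMUSG00000036854), and 122 of its 2299 exon bases overlap Proser3 on the other strand, a gene of 5.30 CPM.

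Hspb1, known as Hsp27, which binds actin filaments and is also made in endothelium and smooth muscle, was at 142, 127, 144 and 129 CPM in HET and 137, 117, 145 and 137 CPM in WT. The lowest value of all was in WT replicate 2 and the highest in WT replicate 3. The HET level was 101% of WT (interval 90.3% to 113%). Summed smooth muscle markers were at 610 to 711 CPM in HET and 597 to 692 CPM in WT, and summed endothelial markers at 1013 to 1123 CPM in HET and 1024 to 1252 CPM in WT. Their part in the Hspb1 and Hspb6 values was not tested. Hspb1 lies on chromosome 5 (135887919 to 135889563, plus strand; ENSMUSG00000004951).

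Bag3 was the member with the largest difference. It was at 382, 314, 362 and 367 CPM in HET replicates 1 to 4 and at 315, 304, 358 and 314 CPM in WT replicates 1 to 4. In HET, 3 libraries lay above every WT library and replicate 2 lay among the lower WT values, while WT replicate 3 lay near the 3 higher HET libraries. The means were 356 ± 29 CPM in HET and 323 ± 24 CPM in WT (SD, n = 4 each). The HET level was 110% of WT with an interval of 99.0% to 123%, and the log2 fold change of 0.14 (SE 0.0714) did not pass (unadjusted p = 0.0712, adjusted p = 0.770, edgeR). The fold change was 0.11 without HET replicate 1, 0.20 without HET replicate 2 and 0.19 without WT replicate 3. Among 3 HET and 1 WT libraries sharing digits the log2 difference was 0.23, and among 1 HET and 2 WT libraries sharing others it was -0.09, so its sign was not the same within them, and with the digits as a covariate the fold change was 0.09 (adjusted p = 0.9995, edgeR; 0.568 to 0.9995 over all alternatives). Bag3 lies on chromosome 7 (128523616 to 128546981, plus strand; ENSMUSG00000030847).

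Hspb8, known as Hsp22 and the main small heat shock partner of Bag3, was at 654, 611, 598 and 653 CPM in HET and 685, 660, 597 and 641 CPM in WT, with the highest value in WT replicate 1 and the lowest in WT replicate 3. The HET level was 97.4% of WT (interval 89.7% to 106%). Over the 8 libraries the coefficient of variation ran from 4.99% for Hspb8 to 11.1% for Hspb6, with a median of 8.21% over the members and 6.90% over all genes of at least 8 CPM. Hspb8 lies on chromosome 5 (116408491 to 116422864, minus strand; ENSMUSG00000041548).

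Hspb7, a heart and muscle protein that binds filamin C and limits the length of thin filaments, was the most counted member, at 2914, 2067, 2480 and 2706 CPM in HET and 2541, 2704, 2296 and 2567 CPM in WT. HET replicates 1 and 2 were the highest and the lowest of all 8 libraries, so that the HET spread enclosed the WT spread. The means were 2542 ± 363 CPM in HET and 2527 ± 170 CPM in WT (SD, n = 4 each), a level of 101% (interval 86.5% to 117%). Hspb7 lies on chromosome 4 (141420779 to 141425311, plus strand; ENSMUSG00000006221).

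Hspb2 and Hspb3, which form a complex with each other in muscle, were the members of lowest level. Hspb2, first described as a binding partner of myotonic dystrophy protein kinase, was at 70.4, 64.7, 65.4 and 59.6 CPM in HET and 62.7, 67.7, 69.3 and 68.4 CPM in WT. The highest value was in HET replicate 1 and the lowest in HET replicate 4. Its HET level was 97.0% of WT (interval 88.7% to 106%). Hspb3 had 258 to 339 counts in HET and 277 to 414 in WT, or 8.98, 8.05, 8.29 and 9.09 CPM in HET and 9.47, 7.95, 10 and 7.09 CPM in WT. All HET values lay inside the wider WT range, and the level was 99.7% (interval 83.8% to 119%), the widest interval of the 8. Hspb2 lies on chromosome 9 (50751078 to 50752354, minus strand; ENSMUSG00000038086) and Hspb3 on chromosome 13 (113662896 to 113663676, minus strand; ENSMUSG00000051456).

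**Figure D2:**
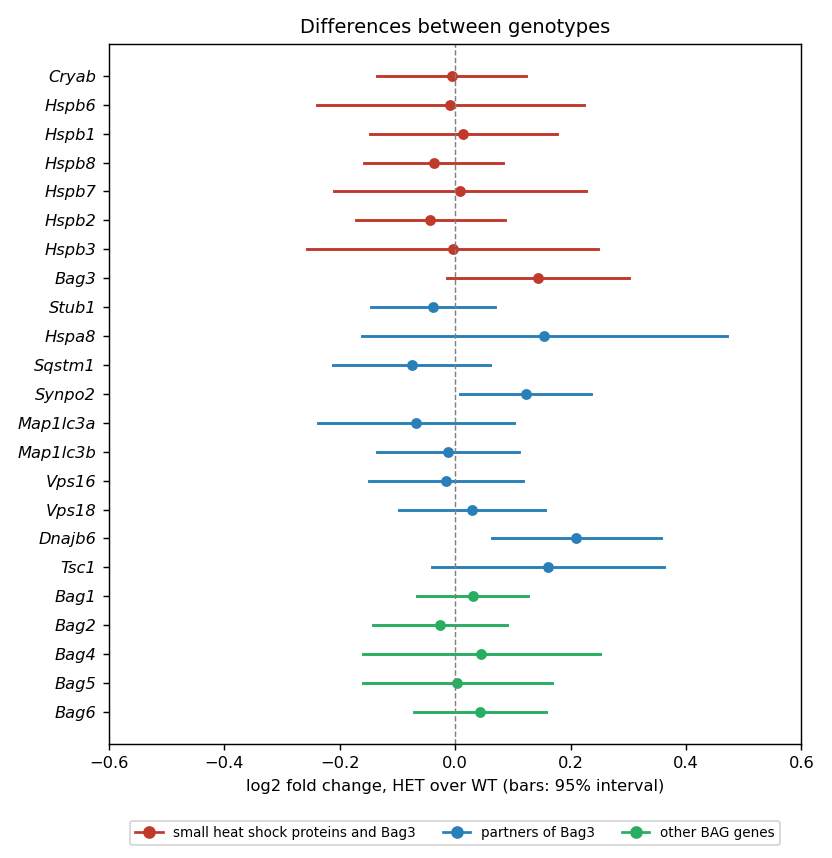
Log2 fold change (points) and 95% interval (bars) on the horizontal axis for the 8 members, 10 partners of Bag3 and 5 other BAG genes, 1 gene a line. The 7 small heat shock protein points lie between -0.04 and 0.01, Bag3 lies at 0.14, and among the partners the intervals of Synpo2 and Dnajb6 lie above 0.

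Hspb2 and Cryab are neighbours on chromosome 9 on opposite strands. In GENCODE M21 their exons share 252 bases (50751325 to 50751576), which is 30.2% of the exon bases of Hspb2 and 17.04% of those of Cryab. The strand setting of the counting is not given in the sources used here, so the counts of both genes, and of Hspb2 most, carry that uncertainty. The count ratio of Hspb2 to Cryab was 0.0445, 0.0430, 0.0416 and 0.0358 in HET and 0.0436, 0.0435, 0.0416 and 0.0403 in WT. HET replicate 4 had the lowest ratio. The groups overlapped (log2 difference -0.04, exact two-sided permutation test p = 0.743, n = 4 each).

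Ratios between genes of a library do not depend on how libraries are scaled, and 4 were compared, with p-values adjusted over the 4. The ratio of Bag3 to Bag1, the family member tied to proteasomal rather than autophagic clearance, was 2.30, 1.82, 2.20 and 2.20 in HET and 1.94, 1.80, 2.25 and 1.89 in WT. HET replicate 2 and WT replicate 3 each lay with the other group (log2 difference 0.11, p = 0.400 by an exact two-sided permutation test, adjusted p = 0.743). The difference was 0.19 without HET replicate 2, 0.18 without WT replicate 3, 0.07 without HET replicate 1 or WT replicate 2, and 0.04 with title digits as a covariate. The ratio of Hspb8 to Bag3 was 1.71, 1.95, 1.65 and 1.78 in HET and 2.17, 2.17, 1.67 and 2.04 in WT. Here 3 of the 4 WT libraries lay above all HET libraries and WT replicate 3 lay among HET (log2 difference -0.18, exact permutation p = 0.143, adjusted p = 0.571). Without WT replicate 3 the difference was -0.27 (adjusted p = 0.229 by the exact test over 3 and 4 samples). That was the largest of the values with single libraries left out, which ran from -0.27 to -0.14. The ratio of Hspb2 to Hspb3 averaged 7.58 ± 0.69 in HET and 7.93 ± 1.41 in WT (SD, n = 4 each), with exact permutation p = 0.686 and adjusted p = 0.743.

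**Figure D3:**
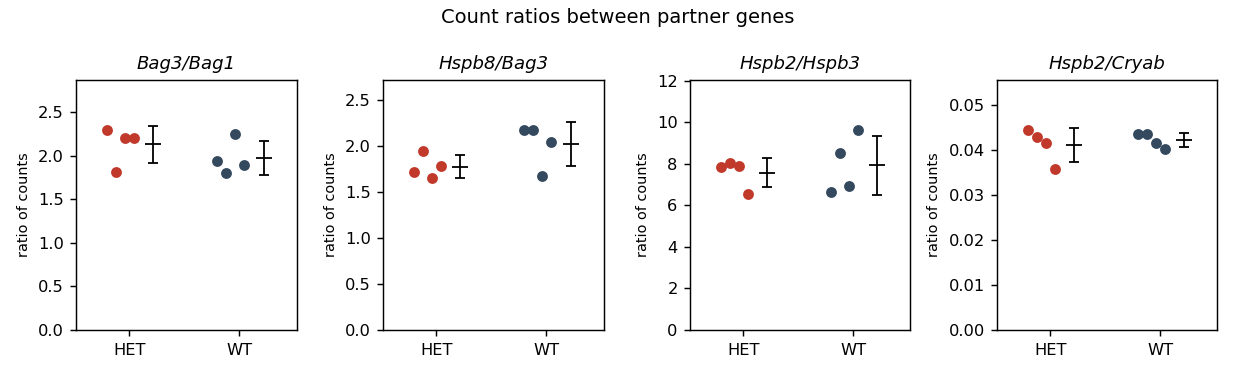
Ratios of read counts between partner genes in each library, HET points left and WT points right in each panel, with mean and SD as black bars and axes from 0. The groups overlap in all 4 panels; for Hspb8/Bag3 the HET libraries sit at 1.65 to 1.95 and the WT libraries at 1.67 to 2.17.

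Set in order by level per length (CPM per kb of exon), the members ran from Cryab at the top to Hspb3 at the bottom. Cryab averaged 1070 ± 44 CPM per kb in HET and 1074 ± 79 in WT, and Hspb7 918 ± 131 in HET and 913 ± 61 in WT (SD, n = 4 each). By this length, which counts all annotated exons of a gene, the ranges of these 2 overlapped over the libraries. Hspb6 came next, at 460 ± 61 CPM per kb in HET and 463 ± 49 in WT, then Hspb8 at 323 ± 15 in HET and 331 ± 19 in WT, neither overlapping its neighbours. Bag3 (139 ± 11 CPM per kb in HET, 126 ± 9 in WT) and Hspb1 (131 ± 9 in HET, 130 ± 12 in WT) overlapped each other. Hspb2 stood at 78.0 ± 5.3 CPM per kb in HET and 80.4 ± 3.5 in WT and Hspb3 at 11.02 ± 0.66 in HET and 11.05 ± 1.72 in WT, each apart from the gene above it. Together the 8 genes held 5598 to 6950 CPM in HET libraries and 6090 to 6598 CPM in WT libraries, that is 0.560% to 0.695% and 0.609% to 0.660% of the counts.

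**Figure D4:**
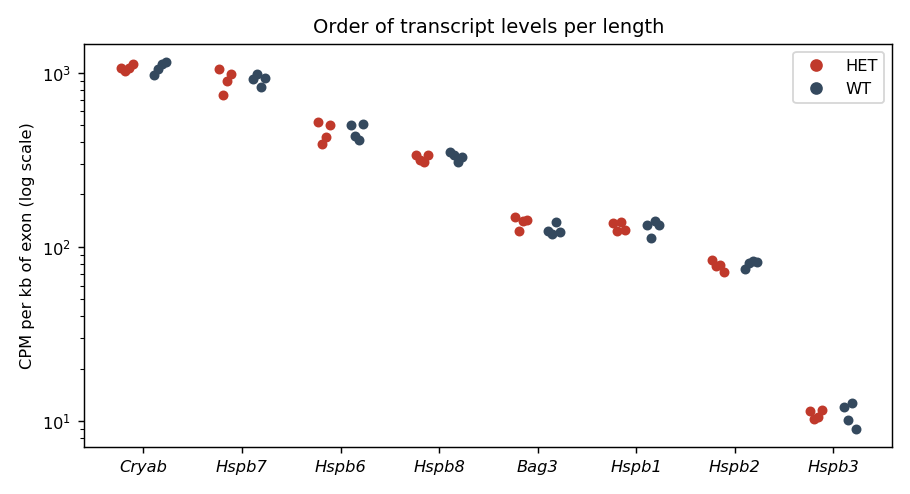
Level per length of the 8 members on a logarithmic axis (CPM per kb of exon), with HET points left and WT points right for each gene. The order runs from Cryab and Hspb7, which overlap, down to Hspb3 at 9.08 to 12.8 CPM per kb, and both genotypes hold the same order of means except that Bag3 and Hspb1 change places in WT.

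HET replicate 2 lay below the mean of the 8 libraries for all 8 members. HET replicate 1 held the highest value of 4 members and the highest mean deviation over the 8 (0.105 on the log2 scale), and HET replicate 2 the lowest mean deviation (-0.120). By single genes, HET libraries held the lowest value of 3 members and the highest of 4, and WT libraries the lowest of 5 and the highest of 4. Over the 8 libraries, 28 pairs of members were compared on log2 CPM. Their median Pearson r was 0.173, ranging from -0.382 to 0.782, and after adjustment over the 28 pairs 0 passed. The median r was 0.0115 without HET replicate 1 and -0.0105 without HET replicate 2. The closest pair was Hspb6 with Hspb7, with Pearson r = 0.782 (exact permutation p = 0.0143, adjusted p = 0.399) and Spearman rho = 0.810 (exact permutation p = 0.0218, adjusted p = 0.610). Without the 2 libraries farthest from the Hspb6 median, which also narrows the range of Hspb6, r was 0.403. Bag3 and its partner Hspb8 had r = -0.289 (exact permutation p = 0.486, adjusted p = 0.938) and rho = -0.143 (exact permutation p = 0.752, adjusted p = 0.935), and r = 0.0761 without the 2 libraries farthest from the Hspb8 median. Bag3 and Hspb1 had r = 0.603 (exact permutation p = 0.115, adjusted p = 0.804) and rho = 0.571 (exact permutation p = 0.151, adjusted p = 0.705), with r = 0.172 without the 2 farthest.

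**Figure D5:**
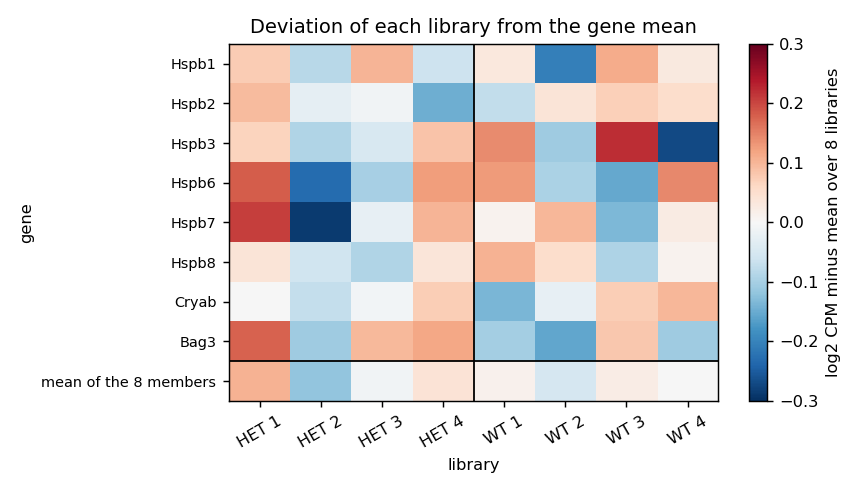
Deviation of each library (columns, HET left of the line and WT right) from the mean of each gene over the 8 libraries, in log2 CPM, with the mean of the 8 members in the bottom row. HET 2 is below the mean for all 8 members (-0.120 in the bottom row), HET 1 is above it for all but Cryab (0.105), and each WT column holds both signs.

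By likeness of pattern over the 8 libraries, among 8432 other genes of at least 10 CPM, those closest to Bag3 were Epb41l4a (Pearson r = 0.966), Rpl34 (0.963), Noa1 (0.962), Ctnna1 (0.961) and Rps3a1 (0.960). Rpl34 and Rps3a1 encode ribosomal proteins, which have many near-identical copies, so their counts are uncertain, and Ctnna1 encodes alpha-E-catenin of the adherens junction. Closest to Cryab were Megf9 (0.947), Cfap298 (0.933), Nlgn2 (0.926), Serinc3 (0.922) and Gtf2f1 (0.916), and closest to Hspb1 were Rab3gap2 (0.963), Tmem268 (0.958), Tmcc2 (0.934), Zfp36l1 (0.933) and Tubb2a (0.929). These are the highest of many values and are given as a description without a test. When single libraries were left out, 0 to 4 of the 5 genes were found again for Bag3, 0 to 5 for Cryab and 0 to 3 for Hspb1.

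Of 10 partners of Bag3 in chaperone-assisted autophagy, 0 were called and 5 had a positive log2 fold change, with a median of 0.01. Groups did not overlap for 2 of the 10, against 3.78% of all genes. Dnajb6, a co-chaperone of the Z-disc, was at 14.3, 14.3, 14.0 and 16.1 CPM in HET and 13.0, 12.4, 12.6 and 12.9 CPM in WT, with every HET library above every WT library (log2 fold change 0.21, SE 0.0662, edgeR adjusted p = 0.770). Synpo2, myopodin, which links Bag3 to membrane fusion at the Z-disc, was at 166, 177, 186 and 169 CPM in HET and 166, 159, 163 and 152 CPM in WT (log2 fold change 0.12, SE 0.0514, edgeR adjusted p = 0.770). HET replicate 1 and WT replicate 1 were nearly equal for Synpo2, at 166.3 and 165.5 CPM. Overlap was judged on TMM-scaled values alone. With library-size scaling the log2 fold change was 0.080 for Synpo2 and 0.167 for Dnajb6. Neither passed the test. Hspa8, the chaperone that Bag3 recruits, ranged from 617 to 769 CPM in HET and from 506 to 817 CPM in WT, Stub1 from 95.4 to 98.2 CPM in HET and 92.0 to 104 CPM in WT, and Sqstm1, the autophagy receptor p62, from 358 to 416 CPM in HET and 384 to 422 CPM in WT. These 3 ranges overlapped.

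Of the other BAG genes 0 of 5 were called, and their log2 fold changes were -0.03 to 0.05 (median 0.03). Bag1 averaged 168 ± 4 CPM in HET libraries and 164 ± 4 CPM in WT libraries, and Bag6, the family member of smallest p, 238 ± 14 CPM in HET libraries and 231 ± 6 CPM in WT libraries (SD, n = 4 each). Of the other small heat shock genes, Cryaa, the alpha-crystallin of the lens, had 0 counts in all 8 libraries, and Hspb9 and Odf1, known from testis, had at most 1 count in a library. Hspb11, which carries the family name, averaged 3.60 ± 0.60 CPM in HET libraries and 4.03 ± 0.61 CPM in WT libraries (log2 fold change -0.16, SE 0.152, edgeR adjusted p = 0.835). Of 5 heat shock factor genes and Hsbp1, 4 were tested and 0 called (median log2 fold change -0.01). Hsf1, the factor of the heat shock response, averaged 50.6 ± 1.7 CPM in HET libraries and 47.7 ± 2.7 CPM in WT libraries (log2 fold change 0.09, SE 0.0528), and Hsf4 4.53 ± 0.87 CPM in HET libraries and 4.66 ± 0.27 CPM in WT libraries (SD, n = 4 each). Hsf3 and Hsf5 had at most 3 counts in a library.

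Of 16 inducible heat shock genes and co-chaperones 0 were called and 14 had a positive log2 fold change (median 0.13), where 48.5% of all genes tested had one. Many of the 16 were highest within HET in HET replicate 3 and highest within WT in WT replicate 3. The 14 are therefore not separate observations. Hspa1b, an inducible Hsp70 gene with a near-identical neighbour Hspa1a, was at 4.61, 1.69, 12.3 and 2.08 CPM in HET and 1.42, 1.23, 2.76 and 1.38 CPM in WT (log2 fold change 1.61, SE 0.701, edgeR adjusted p = 0.770; 0.72 without HET replicate 3). HET replicates 3 and 1 were the highest, and the groups overlapped. In HET replicate 3, where Hspa1b was highest, Bag3 stood at 362 CPM, inside the range of the other HET libraries. Hspb1 stood there at 144 CPM, the highest HET value but below that of WT replicate 3. Over all libraries, Hspa1b and Bag3 both had their highest values in HET replicates 1, 3 and 4 and WT replicate 3. Hspb1 had its highest values in HET replicates 1 and 3 and WT replicate 3, but was at 129 CPM in HET replicate 4. These likenesses were not tested. Chordc1, a co-chaperone of Hsp90, averaged 31.0 ± 3.0 CPM in HET libraries and 25.9 ± 3.7 CPM in WT libraries (SD, n = 4 each; log2 fold change 0.26, SE 0.105, edgeR adjusted p = 0.770).

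Of 9 filament and Z-disc proteins that these chaperones protect, 0 were called, 6 had a positive log2 fold change (median 0.01), and 2 did not overlap between the groups, against 3.78% of all genes. Des, desmin, the client of Cryab, was at 2475, 2336, 2327 and 2339 CPM in HET and 2282, 2160, 2108 and 2244 CPM in WT. Every HET library lay above every WT library (log2 fold change 0.11, SE 0.0440), though the adjusted p was 0.770 (edgeR). The same held for 1 of the 7 cardiomyocyte markers, Myh6 (log2 fold change 0.12, edgeR adjusted p = 0.770). Overlap was judged on TMM-scaled values alone, and TMM factors were 0.978 to 0.992 in HET and 0.991 to 1.04 in WT. With library-size scaling the log2 fold change was 0.065 for Des and 0.081 for Myh6. Vim, vimentin, the filament of non-muscle cells, had every HET library below every WT library, at 211, 202, 189 and 214 CPM in HET and 217, 233, 233 and 250 CPM in WT (log2 fold change -0.19, SE 0.0583, edgeR adjusted p = 0.770). With library-size scaling the log2 fold change of Vim was -0.235. Beside these values, summed fibroblast markers were at 572 to 685 CPM in HET and 614 to 690 CPM in WT and summed macrophage markers at 155 to 174 CPM in HET and 161 to 227 CPM in WT, and their part in the Vim values was not tested.

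Of the 9 lists of cell type and chamber markers, 0 genes were called (edgeR adjusted p of 0.770 or more). Log2 fold changes of the 2 genes of smallest p in each were 0.12 for both Myh6 and Tnnt2 (cardiomyocyte), 0.14 for Myh11 and 0.08 for Mylk (smooth muscle), -0.28 for Tnnt3 and 0.05 for Ckm (skeletal muscle) and -0.30 for Egfl7 and 0.07 for Kdr (endothelium). They were -0.10 for Col1a1 and -0.13 for Tcf21 (fibroblast), -0.41 for Cd68 and -0.21 for C1qa (macrophage), -0.49 for Myl4 and -0.04 for Nppa (atrium), 2.06 for Cidec and 1.55 for Adipoq (adipocyte) and 0.06 for Hba-a1 and 0.11 for Hbb-bt (erythroid). Of the skeletal muscle list, the myosins were near absent, with 1 to 12 counts of Myh1, 6 to 12 of Myh2 and 4 to 9 of Myh4 per library. Tnnt3 averaged 0.43 CPM in HET and 0.52 CPM in WT, and Mylpf 0.73 CPM in HET and 0.80 CPM in WT. Ckm and Acta1 were high. Ckm was at 2639 to 2977 CPM in HET and 2488 to 2786 CPM in WT, and Acta1 at 355 to 1588 CPM in HET and 318 to 1826 CPM in WT. Whether skeletal muscle, which also makes small heat shock proteins, had a part in the values was not tested. The atrial genes Sln, Myl7 and Bmp10 had at most 4 counts per library, and the adipocyte gene Lep had 0 in all. Summed adipocyte markers were low, at 0.674 to 7.20 CPM in HET and 0.529 to 1.52 CPM in WT.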

How the data were processed

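Poly(A) RNA of mouse ventricle was sequenced from 4 HET and 4 WT samples with a stranded TruSeq kit, per the labels' protocols. The values are the authors' deposited read counts per Ensembl gene, whole numbers without normalisation. STAR 2.4.2a, HTSeq 0.6.1 and GRCm38/mm10 are named in the submitters' processing notes; neither the gene annotation nor the strand option of HTSeq is given in the sources used here. Groups came from the genotype labels, and replicates were numbered in deposition order, so numbers pair nothing. Symbols were matched by Ensembl ID for 36345 of 38293 genes. Positions and exon lengths came from GENCODE M21, promoter sequences from RefSeq.

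Genes passing filterByExpr (14567) were scaled by TMM and compared with edgeR 4.0.16 in R 4.3.3 (robust quasi-likelihood fit on genotype, Benjamini-Hochberg over all genes tested, threshold 0.05). The script was tested on simulated data. Fold changes are HET over WT, SE derive from the F statistic, and log2 CPM used a prior count of 2. Single values and ratios were compared by exact permutation over the 70 splits. Within groups, the mean chi-square per gene between libraries was 14.6 to 27.9 in HET and 23.2 to 43.9 among WT replicates 1, 2 and 4. It was 66.5 to 86.2 between WT replicate 3 and these. Sampling noise gives about 1, so no library was the same library sequenced again. The check cannot tell separate libraries of 1 animal from libraries of different animals. The members, gene lists, tests and named genes were chosen with earlier results of these data known. Beside the members, Pkp2 and Bag1, the genes named are the 2 of smallest p in each list and undetected list members. The 5 genes most like Bag3, Cryab and Hspb1 are named as well. Hspa8, Stub1, Sqstm1, Hspa1a, Acta1, Mylpf and the low myosin, atrial, testis and lens genes were added after their values were seen. Results were recomputed with 3 other scalings (RLE, upper quartile, library size), other filters, DESeq2 1.42.0, limma-voom (limma 3.58.1), the title digits as covariate, and each library left out.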

Additional observations from a re-analysis of the deposited data

Results flagged for a closer look

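In groups of 4, a sample was set apart where its gap to the nearest other sample exceeded Dixon's 95% critical value as a share of the whole range. Chance flags about 1 in 20 groups, and 11 were found in 114 checks. The checks were not independent, since some of the genes were chosen for their pattern over these same libraries.

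Among the members' ratios, HET replicate 4 had a low Hspb2 to Hspb3 ratio, 6.556 against 7.838 to 8.039 in the other HET libraries. Of the listed genes outside the members, HET replicate 1 stood above the other HET libraries for Des (2475 CPM against 2327 to 2339) and the atrial marker Nppa (461.3 against 217.9 to 259.1). HET replicate 4 did so for Dnajb6 (16.11 CPM against 13.99 to 14.34). WT replicate 3 stood above the other WT libraries for Hspa1b (2.755 CPM against 1.233 to 1.418) and for 2 of the genes most like Bag3, Rpl34 (78.83 CPM against 53.55 to 54.62) and Rps3a1 (141.2 against 84.41 to 89.36), and below them for Pkp2 (148.5 against 165.7 to 169.1). Of the genes most like Hspb1, Tmem268 (16.66 CPM against 20.28 to 20.88) and Zfp36l1 (62.12 against 76.08 to 78.52) were low in WT replicate 2, where Hspb1 was lowest as well. Nlgn2, 1 of the 5 genes most like Cryab, was low in WT replicate 1 (13.7 CPM against 15.12 to 15.37), as Cryab was. The genes most like a member were chosen by likeness over these same libraries. That they share its low or high library follows from that choice and is no separate finding.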

How the results depend on the processing

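Under 16 alternatives, 0 of the 8 members were called each time. Bag3 kept its positive and Hspb2, Hspb8 and Pkp2 their negative direction in all 16. Genes called over the whole table were 1 as reported, 2 with no filter on low counts, 13 with DESeq2 (7 higher, 6 lower), and 1 to 3 when single libraries were left out, the 3 coming without HET replicate 3; the cause was not tested.

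Members whose fold change lay close to 0 changed sign. Upper-quartile scaling gave -0.001239 for Hspb1 and -0.008963 for Hspb7, and library-size scaling -0.03053, -0.03322 and, for Bag1, -0.01185. limma-voom gave 0.002989 for Cryab and 0.0611 for Hspb3. The title digits as a covariate gave 0.019 for Cryab, -0.02898 for Hspb1, -0.09997 for Hspb7, -0.006855 for Bag6, 0.0473 for Hsf4, -0.01265 for Kdr and 0.05854 for the log2 difference of Hspb2/Hspb3. Differences within shared title digits, an alternative chosen after seeing the data, were 0.0519 for Hspb2 and 0.159 for Cryab among 3 HET and 1 WT libraries. Among 1 HET and 2 WT libraries they were -0.1537 for Hspb1, -0.2269 for Hspb6, -0.2322 for Hspb7, -0.1575 for Cryab and -0.09349 for Bag3.

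Leaving out 1 library at a time gave ranges of -0.04769 to 0.02657 for Cryab, -0.04683 to 0.05321 for Hspb1, -0.08716 to 0.07214 for Hspb3, -0.07221 to 0.06255 for Hspb6, -0.06349 to 0.09567 for Hspb7, -0.1685 to 0.03853 for Hsf4, -0.1151 to 0.251 for Hba-a1, -0.05898 to 0.2623 for Hbb-bt, -0.0223 to 0.2071 for Kdr and -0.3309 to 0.08237 for Nppa. Those of the log2 ratio differences were -0.1329 to 0.04781 for Hspb2/Hspb3 and -0.07961 to 0.02556 for Hspb2/Cryab, and the median r between members was -0.01048 (without HET replicate 2) to 0.2659. Without WT replicate 3, C1qa was at -0.02141, Cd68 at -0.2615, Myh11 at 0.03386 and Mylk at 0.0218. Tcf21 was at -0.03509 without WT replicate 4 and Tnnt3 at -0.1246 without WT replicate 1. Other genes that kept their sign but moved by over 1.5 times had ranges of -0.08321 to -0.0005851 (Hspb2), -0.07514 to -0.00542 (Hspb8), 0.01419 to 0.04429 (Bag1), 0.01643 to 0.08065 (Bag6), 0.04828 to 0.1099 (Hsf1), -0.2824 to -0.06684 (Hspb11), 0.01017 to 0.07086 (Ckm), -0.1931 to -0.04484 (Col1a1) and -0.6063 to -0.3235 (Myl4).

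With the longest transcript as length, levels per kb were 1420 for Cryab, 536.1 for Hspb6, 351 for Hspb8, 144.9 for Hspb1 and 85.43 for Hspb2, since the length divided by is shorter. By that length Hspb1 stood above Bag3 (132.5), and the range of Cryab no longer overlapped that of Hspb7 (mean 915.3). The order of Bag3 and Hspb1 and the overlap of Cryab with Hspb7 thus depend on the length used. No paired analysis was possible because the labels give no replicate numbers that tie HET to WT samples. Hspb3 has the fewest counts of the members, 258 to 414 a library. With 4 samples a group, the members' intervals ran from the narrowest for Hspb8 (89.7% to 106% of WT) to the widest for Hspb3 (83.8% to 119%). These intervals describe single genes and are not limits of detection. Calls rested on p-values adjusted over all genes tested, so differences beyond these intervals could also have gone uncalled.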
